A study of Cristatella mucedo with 12 samples.

Results

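The edge zone of mature Cristatella mucedo colonies was set against the central zone, in 4 of the 12 libraries of the series and across the 35949 gene models of the deposited table. The edge zone gave 2 libraries (replicates 2 and 3) and the central zone gave 2 (replicates 1 and 2), assigned by their titles. All 12 libraries were of wildtype animals of isolate SBPEP1 and were made from polyadenylated RNA. The mature colonies came from a stream and were kept in an aquarium. The other mature libraries were 2 of the end part (replicates 1 and 3) and 2 of the middle part (replicates 2 and 3) of elongated colonies, and 4 libraries followed statoblasts from the freezer through day 2, day 4 and day 6, with 1 library a stage. The labels call only the middle and end dissection one of elongated colonies and give no shape for the colonies cut into edge and centre. They do not give the width of the edge zone, the number of colonies in a library, or whether an edge and a central library came from the same colony. The p-values therefore measure the spread between these libraries, which may be technical.

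Cristatella mucedo is a freshwater bryozoan whose colony is a gelatinous, creeping body covered by filter-feeding zooids with ciliated tentacle crowns. In this kind of colony, buds and young zooids form towards the periphery, while older zooids, which regress in time, lie nearer the middle. Statoblasts are dormant, capsule-like buds that form inside the colony on a cord of tissue in each zooid and later germinate into a new colony. The files pair no nuclear gene model with a gene name, so neither the zones nor these cell types could be checked by markers, and nuclear results are given by level, span, contig and position. Only 16 mitochondrial models carried names.

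Edge zone libraries held 25700155 and 25012980 counts in replicates 2 and 3, and central zone libraries held 26089111 and 20627220 counts in replicates 1 and 2. Statoblast libraries were shallower, at 4738054 to 7805663 counts. A floor of 3 counts was 0.117 and 0.12 CPM (counts scaled to a common library size by the library total) in the edge libraries and 0.115 and 0.145 CPM in the central libraries. In the statoblast libraries it was 0.384 to 0.633 CPM, and it covers counting error only. CPM values are not divided by transcript length, which the files do not give, so levels are compared between libraries and used between models only to form classes. Of the 35949 models, 6144 had no count in any library, and 18085 held enough counts in the mature libraries to be tested. The 17864 others were not tested.

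Expression differed widely between the zones, and the balance of rises and falls depended on how the libraries were scaled. With TMM scaling, which sets the bulk of models to no change, 2311 models (12.8% of those tested) were higher at the edge than in the centre and 1978 models (10.9%) were lower, 23.7% in all (threshold 0.05 on the Benjamini-Hochberg adjusted p of edgeR's quasi-likelihood F test). With library totals alone, 908 models (5.02%) were higher and 3881 models (21.5%) were lower, 26.5% in all. The median log2 fold change over all models tested was -0.01 with TMM and -0.42 with library totals. TMM factors were 0.756 and 0.832 in the edge libraries, against 1.14 and 0.957 in the central libraries. Both scalings called 908 models higher and 1978 lower, and 0 models were called in opposite directions. A further 1403 models were higher with TMM alone, and 1903 were lower with library totals alone.

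The models that rose were a large part of the RNA. Those called higher with TMM held 46.4% and 47.2% of the counts in edge replicates 2 and 3, against 27.1% and 29.3% in central replicates 1 and 2. The libraries are those that made the calls, so these shares are a description. The same models held 29.6% and 33.4% of the counts in the end part and 24.7% and 28.2% in the middle part, which did not enter the contrast. Models called lower held 2.84% and 3.58% of the counts in the edge libraries and 11.5% and 12.3% in the central libraries. In the end part these held 10.2% and 10.6%, and in the middle part 13.3% and 13.8%. Both edge libraries lay outside the range of the other 6 mature libraries for both groups of models, which were picked by their edge and central values. The libraries of a zone were close to each other by comparison. With TMM scaling, the median absolute log2 ratio was 0.258 between the edge libraries and 0.302 between the central libraries, against 0.401 to 0.618 between an edge and a central library. In bulk RNA, fewer cells of a type and less RNA per cell cannot be told apart.

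Falls were larger than rises. Among models called with TMM, 147 of the higher and 446 of the lower were fitted with at least a 4-fold change. At least 2-fold changes were about as frequent in both directions, with 1608 higher and 1603 lower. When each edge library was set against each central library with TMM scaling, 17 models (0.094%) were at least 4-fold higher in all 4 pairings and 145 models (0.802%) were at least 4-fold lower. With library totals these counts were 6 (0.0332%) and 195 (1.08%). A 2-fold change in all pairings was found for 581 models higher (3.21%) and 551 lower (3.05%) with TMM, and for 172 (0.951%) and 1022 (5.65%) with library totals. The 145 models had medians of 0.772 and 0.620 CPM in edge replicates 2 and 3, against 32.4 and 55.0 CPM in central replicates 1 and 2. Their medians were 34.1 and 39.8 CPM in the end part and 48.0 and 58.3 CPM in the middle part. The end and middle libraries, which did not pick the models, thus stood near the centre and far from the edge. No count was found in any statoblast library for 54 of the 145 (37.2%), beside 9.46% of all models tested.

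The counts of calls depended on single libraries, and most on edge replicate 2 and central replicate 1. Without edge replicate 2, the TMM fit called 456 models higher and 380 lower, and without central replicate 1 it called 698 and 856. With library totals, 161 were higher and 679 lower without edge replicate 2, 194 and 1240 without central replicate 1, and 427 and 2993 without edge replicate 3. The only replicate number that the zones share is 2, so edge and central libraries could not be paired. With 2 libraries against 2, an exact two-sided permutation test of a single value cannot go below p = 0.333, and values of whole libraries are therefore given without a test.

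Abundant models were the ones called higher most often. Models were classed by their mean CPM over the 2 edge and 2 central libraries. Under 1 CPM, 3.76% of 3056 models were higher and 6.22% lower at the edge with TMM, and 1.54% and 12.6% with library totals. From 1 to 10 CPM, these shares over 7142 models were 7.83% and 12.4% with TMM, and 2.60% and 23.3% with library totals. The order of the directions turned with TMM in the next class. From 10 to 100 CPM, 18.2% of 6595 models were higher and 11.8% lower with TMM, against 6.46% and 24.6% with library totals. From 100 to 1000 CPM, 30.9% of 1136 models were higher and 9.95% lower with TMM, and 16.9% and 17.5% with library totals. At 1000 CPM and over, 53.2% of 156 models were higher and 6.41% lower with TMM, and 36.5% and 7.05% with library totals. The share of models called higher thus grew in each step of level under both scalings. The share called lower did not follow the level evenly, since the classes from 1 to 100 CPM had the highest shares under both. From the lowest class to the highest, the median log2 fold change was -0.10, -0.13, 0.06, 0.47 and 0.88 with TMM. With library totals it was -0.50, -0.54, -0.34, 0.07 and 0.49. The median SE with TMM was 0.572 under 1 CPM and 0.264 from 10 to 100 CPM, so changes were harder to call at low levels.

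**Figure D1:**
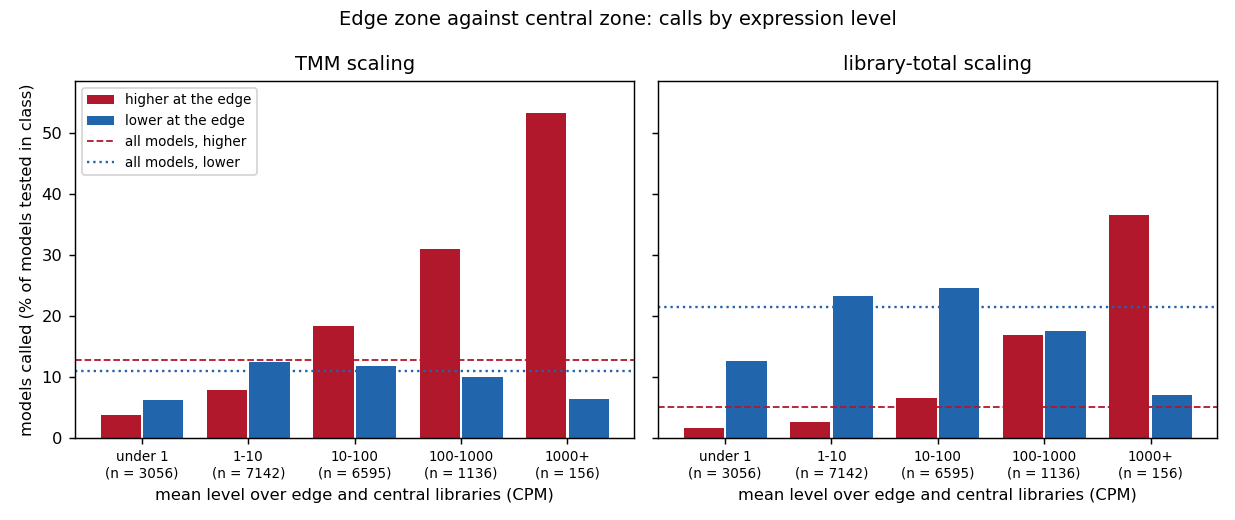
Share of models tested (%, bars) called higher or lower at the edge in classes of mean CPM over the edge and central libraries, with TMM scaling (left) and library totals (right), and the share over all models as lines. The share called higher climbs with level in both panels, to 53.2% and 36.5% in the top class.

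The top class was nearly all nuclear and moved largely as a group. It held 141 nuclear models, of which 83 were higher and 9 lower with TMM, and 57 and 10 with library totals. Their medians were 2449 and 2386 CPM in edge replicates 2 and 3, against 1774 and 1988 CPM in central replicates 1 and 2. The edge medians lay above both central ones, and also above 1952 and 2001 CPM in the end part and 1680 and 1680 CPM in the middle part. Together these models held 38.7% and 39.1% of the counts in the edge libraries, against 28.0% and 30.9% in the central libraries. The median log2 fold change was 0.93 with TMM and 0.54 with library totals. It was 0.65 to 1.18 in the single pairings of an edge with a central library with TMM and 0.45 to 0.59 with library totals, and 0.80 with TMM between the libraries numbered 2. In statoblasts the medians were 1537 CPM in the freezer, 1833 CPM on day 2, 1782 CPM on day 4 and 1719 CPM on day 6. These are near those of the middle part and of central replicate 1.

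How many of the abundant models passed the test depended on the libraries, while their median moved little. With TMM, 4 of the 141 were called higher and 2 lower without edge replicate 2, and the higher count was 20 without central replicate 1, 39 without edge replicate 3 and 97 without central replicate 2. Over the same fits and those without an end or middle library, the median log2 fold change stayed between 0.77 and 1.12 with TMM and between 0.49 and 0.58 with library totals. When level was taken from the end and middle libraries instead, 142 nuclear models were in the top class, of which 78 were higher and 14 lower with TMM, and 55 and 17 with library totals. Their median log2 fold change was 0.89 with TMM and 0.50 with library totals.

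**Figure D2:**
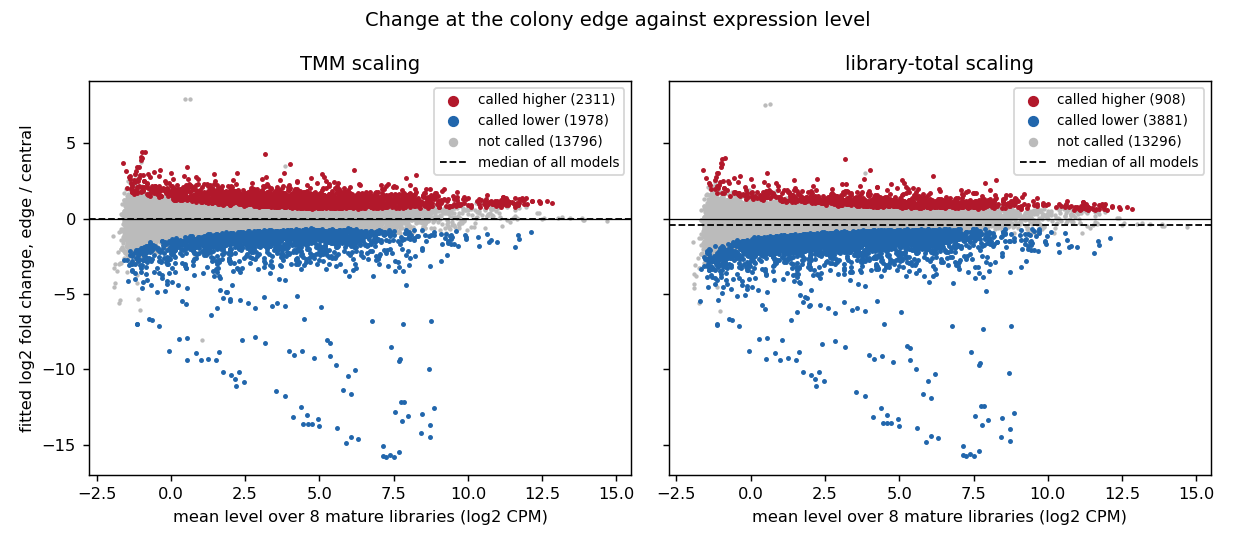
Fitted log2 fold change (edge minus central zone, y axis) against mean log2 CPM in the fit (x axis) for each model tested, with TMM scaling (left) and library totals (right), models called in colour. Rises are most frequent at high levels, where the 141 abundant nuclear models had a median of 0.93 with TMM and 0.54 with library totals, and the extreme values are falls, whose size depends on the prior count where a zone has no counts.

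Span, the distance between the begin and end that the table gives for a model, also moved with the calls. Of 1706 models spanning under 1000 bases, 7.03% were higher and 14.0% lower at the edge with TMM, and 2.70% and 23.6% with library totals. Models of 5000 to 20000 bases had the highest share of rises with TMM, since 15.3% of 6712 models were higher and 10.7% lower. With library totals the shares in that class were 5.96% and 20.9%, and the highest share of rises, 6.48% of 4305 models, fell to the class of 1000 to 5000 bases. Of 1022 models of at least 50000 bases, 7.83% were higher and 12% lower with TMM, and 2.15% and 27.8% with library totals. Both the shortest and the longest models thus had lower shares of rises than the classes between them under both scalings.

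Within a level of expression, the relation to span differed between levels with TMM, but less so with library totals. Among models of 10 to 100 CPM, 24.6% of the 801 spanning 1000 to 5000 bases were higher with TMM, as were 21.2% of the 2778 of 5000 to 20000 bases and 14.9% of the 2269 of 20000 to 50000 bases. Of the 599 models of at least 50000 bases at this level, 9.18% were higher and 13.2% lower. The 148 models under 1000 bases stood outside this order, with 16.2% higher and 21.6% lower. With library totals, 2.84% of the models of at least 50000 bases were higher and 31.2% lower. Their median log2 fold change was -0.18 with TMM and -0.58 with library totals, against 0.06 and -0.34 over all models of this level. From 100 to 1000 CPM, the share higher with TMM showed no such decline up to 50000 bases. It was 30.5% of 269 models from 1000 to 5000 bases, 32.4% of 564 from 5000 to 20000 bases and 32.4% of 222 from 20000 to 50000 bases. Of the 39 models of at least 50000 bases, 23.1% were higher with TMM. With library totals the share higher declined with span, at 20.4%, 17.6%, 14.9% and 2.56% in the same order. The shares from 10 to 100 CPM with library totals were 11.9%, 7.49%, 4.23% and 2.84%. Of 42 models under 1000 bases at this level, 5 were higher and 22 lower with TMM, and 12 of the 22 lie on contig 32. Span can include introns and is not transcript length.

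The calls also divided by the level in statoblasts, whose libraries did not enter the contrast. Models were classed by their highest CPM over the 4 stages. Of 1711 models with 0 counts in all 4 statoblast libraries, 80 (4.68%) were higher and 379 (22.2%) lower at the edge with TMM, and 48 (2.81%) and 573 (33.5%) with library totals. Of 2113 models at 100 CPM and over in at least 1 stage, 629 (29.8%) were higher and 83 (3.93%) lower with TMM. With library totals, 298 (14.1%) were higher and 265 (12.5%) lower. Shares changed step by step in the classes between. The share called higher with TMM was 7.04% under 1 CPM, 8.30% from 1 to 10 CPM and 15.3% from 10 to 100 CPM, and the share called lower was 16.3%, 12.7% and 6.45%. With library totals the shares called higher were 2.87%, 3.21% and 4.96%, and the shares called lower 26.8%, 23.6% and 17.2%.

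**Figure D3:**
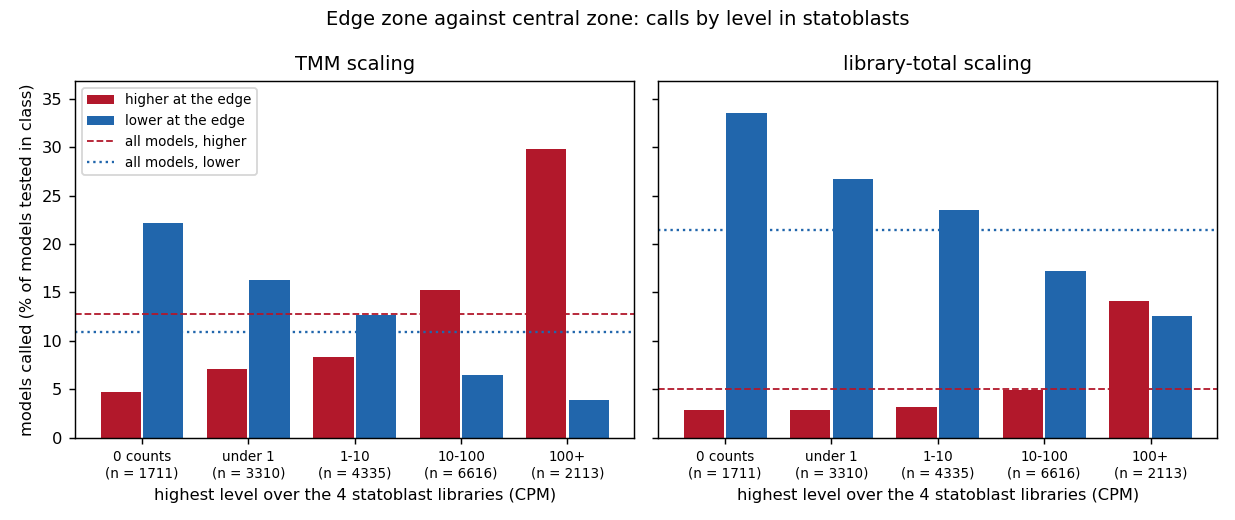
Share of models tested (%, bars) called higher or lower at the edge in classes of the highest CPM over the 4 statoblast libraries, with TMM scaling (left) and library totals (right), and the share over all models as lines. The share called lower declines from 22.2% to 3.93% with TMM and from 33.5% to 12.5% with library totals as the level in statoblasts climbs.

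Shares of counts moved the same way in the extreme classes. Models without a statoblast count held 1.51% and 1.79% of the counts in the edge libraries and 3.63% and 5.44% in the central libraries. Models at 100 CPM and over in a stage held 75.5% and 73.7% in the edge libraries, against 65.8% and 65.5% in the central libraries. Models of 10 to 100 CPM, called higher more often than lower with TMM, held less of the counts at the edge, with 15.6% and 16.5% in the edge libraries and 19.0% and 17.3% in the central libraries. The median log2 fold change of the models without a statoblast count was -0.48 with TMM and -0.89 with library totals, and it stayed between -0.54 and -0.43 with TMM and between -0.98 and -0.77 with library totals when each mature library was left out. For the class at 100 CPM and over, the median was 0.36 with TMM and -0.05 with library totals. Leaving out libraries moved it between 0.29 and 0.42 with TMM and between -0.17 and 0.10 with library totals. The call counts moved more. Without edge replicate 2, 114 models without a statoblast count were lower and 23 higher, and 116 models at 100 CPM and over in a stage were higher and 15 lower. Without central replicate 1 these counts were 249, 27, 213 and 34, and without edge replicate 3 the first was 239 and the last 2 were 413 and 43.

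Within classes of level in the colony, the division with TMM was seen in calls of both directions from 10 CPM upward. Below that level it was seen mainly in the falls. From 10 to 100 CPM the shares higher with TMM were 11.1%, 9.11%, 11.3%, 20.1% and 22.7%, from no statoblast count to 100 CPM and over. With library totals they were 6.88%, 4.56%, 5.11%, 6.66% and 7.62%, so the division at this level was then seen in the falls only. From 1 to 10 CPM, 25.2% of models without a statoblast count were lower with TMM. The share lower was 18.1% under 1 CPM in statoblasts, 12.7% from 1 to 10 CPM and 4.86% from 10 to 100 CPM. Shares higher were 4.77%, 8.90%, 8.33% and 7.64% in that order. With library totals 39.4%, 30.3%, 24.7% and 13.2% were lower. Under 1 CPM in the zones with TMM, 9.27%, 6.62%, 2.67% and 3.94% were lower, and 3.09%, 3.39%, 4.64% and 5.51% higher. Among models of 10 to 100 CPM over the edge and central libraries, 189 had no statoblast count. Of these, 21 were higher and 97 (51.3%) lower with TMM, at a median log2 fold change of -0.87, and 13 and 110 with library totals, at a median of -1.30. The 97 lay on 48 contigs, with 11 on contig 2. In the same class of level, 1115 models reached 100 CPM in a statoblast stage. Of these, 253 were higher and 44 lower with TMM, at a median of 0.16, while library totals turned the direction, with 85 higher and 168 lower at a median of -0.26.

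Among models of 100 to 1000 CPM, 59 had no statoblast count, of which 3 were higher and 40 (67.8%) lower with TMM, at a median of -1.41, and 2 and 45 with library totals, at a median of -1.78. The 40 lay on 17 contigs, with 9 on contig 32. Of the 727 models of this level that reached 100 CPM in a stage, 288 were higher and 15 lower with TMM, at a median of 0.61, and 153 and 65 with library totals, at a median of 0.22. Of the 142 models at 1000 CPM and over in the zones and at 100 CPM and over in a stage, 83 were higher and 3 lower with TMM, at a median of 0.90, and 57 and 3 with library totals, at a median of 0.52. Below 10 CPM in the zones, models that reached 100 CPM in a stage were few and leaned to falls. From 1 to 10 CPM, 4 of 110 were higher and 16 lower with TMM, at a median of -0.25, and 2 and 23 with library totals. Under 1 CPM, 1 of 19 was higher and 5 lower with TMM, and 1 and 6 with library totals. At the same levels, 31 of 650 and 25 of 809 models without a statoblast count were higher with TMM, and 164 and 75 were lower.

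Seen from the calls, models that rose at the edge had higher medians in every statoblast library than models that fell. Models called higher with TMM had medians of 23.1 CPM in the freezer library, 24.9 CPM on day 2, 29.5 CPM on day 4 and 28.7 CPM on day 6. Models called lower had medians of 0.178, 0.211, 0.737 and 1.02 CPM at the same stages, and all models tested had 4.10, 4.43, 6.17 and 6.79 CPM. In the freezer library, 17.8% of the higher models, 46.0% of the lower and 27.5% of all models tested had 0 counts. On day 6, 5.24% of the higher models, 24.5% of the lower and 12.8% of all had 0 counts. A count of 0 there allows up to 0.384 CPM on day 6 and up to 0.535 CPM in the freezer library. With 1 library a stage, no difference between stages was tested.

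Models were also ordered by the first stage at which they reached 1 CPM, a description added after the values were seen. Of 10880 models already at 1 CPM in the freezer library, 15.9% were higher and 6.83% lower at the edge with TMM. Those first reaching 1 CPM on day 2 numbered 587, of which 10.6% were higher and 12.8% lower. Those first reaching it on day 4 numbered 1138, of which 15.2% were higher and 12.6% lower. Of 459 models first reaching it on day 6, 6.32% were higher and 21.6% lower, and of 5021 models that reached it at no stage, 6.23% were higher and 18.3% lower. The course was therefore not even, since the class of day 4 had about as large a share of rises as the freezer class. With library totals the shares called higher in this order were 5.65%, 5.45%, 8.96%, 3.49% and 2.85%, and the shares called lower 17.3%, 23.7%, 22.5%, 32.5% and 29.1%.

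Models that are abundant in statoblasts and all but absent from colonies gave little signal in either zone. There were 43 nuclear models at 100 CPM and over in every statoblast library and under 1 CPM in every end and middle library. Summed over the 43, they had 6.96 and 4.76 CPM in edge replicates 2 and 3, against 7.03 and 7.02 CPM in central replicates 1 and 2. In statoblasts the same sum was 52562 CPM in the freezer library and 29777 CPM on day 6. A count was found for 22 and 20 of the 43 models in the edge libraries and for 26 and 26 in the central libraries. The other 1164 nuclear models at 100 CPM and over in every statoblast library included 391 that were higher and 30 that were lower at the edge with TMM, and 206 and 118 with library totals. Their median log2 fold change was 0.45 with TMM and 0.05 with library totals.

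Among single models, g29215 on contig 37 (bases 3473835 to 3480223) had the largest rise under the rule for named models. It had 169 and 173 CPM in edge replicates 2 and 3, against 33.0 and 15.6 CPM in central replicates 1 and 2. The zones did not overlap, with means of 171 ± 2.46 CPM at the edge and, in the centre, 24.3 ± 12.4 CPM (SD, n = 2 each). The end part had 31.4 and 44.1 CPM and the middle part 17.7 and 7.33 CPM. In statoblasts it had 0, 0.211, 0 and 0.128 CPM from the freezer to day 6, which is at or under the floor of 3 counts in each. The log2 fold change between edge and centre was 3.25 with TMM (SE 0.42, edgeR adjusted p = 0.000254) and 2.81 with library totals (SE 0.41, edgeR adjusted p = 0.000441). It was higher in all 4 pairings of libraries. The next model tested on the contig (bases 3492378 to 3498380) was higher as well, by 3.62 on the log2 scale with TMM, and the one after it (bases 3534689 to 3547513) was lower, at -5.67.

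The model g4215 on contig 42 (bases 141847 to 145486) had the second largest rise under the rule. Its levels were 86.2 and 64.8 CPM in edge replicates 2 and 3, against 12.6 and 13.1 CPM in central replicates 1 and 2. The zones did not overlap, with means of 75.5 ± 15.2 CPM for edge libraries and 12.9 ± 0.342 CPM for central libraries (SD, n = 2 each). The end part had 33.9 and 26.8 CPM and the middle part 2.74 and 0.975 CPM, so both dissections showed the outer piece above the inner one. In statoblasts it stayed at 4.01, 4.75, 1.98 and 4.04 CPM. The log2 fold change between edge and centre was 2.96 with TMM (SE 0.38, edgeR adjusted p = 0.000251) and 2.55 with library totals (edgeR adjusted p = 0.000334). Between end and middle part it was 3.93 with TMM (edgeR adjusted p = 0.000343). The difference of these changes, -0.98, did not pass the test (edgeR adjusted p = 0.244). Its tested neighbours on either side were not called.

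The largest falls under the rule were 2 models close together on contig 110. For g1528 (bases 778516 to 788714) the levels were 1.36 and 2.15 CPM in edge replicates 2 and 3, against 107 and 450 CPM in central replicates 1 and 2. Its level in the end part was 149 and 403 CPM and in the middle part 369 and 411 CPM, so only the edge libraries were low among the 8 mature ones. In statoblasts it went through 55.6, 50.1, 7.55 and 13.9 CPM from the freezer to day 6. Means were 1.76 ± 0.559 CPM for edge libraries and 278.5 ± 242 CPM for central libraries (SD, n = 2 each), so that the central spread is nearly as large as its mean. The log2 fold change was -7.00 with TMM (SE 0.74, edgeR adjusted p = 6.18e-05) and -7.30 with library totals (edgeR adjusted p = 1.2e-05).

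Its neighbour g1532 (bases 803436 to 809391) had 0.885 and 0.806 CPM in edge replicates 2 and 3, against 43.7 and 198 CPM in central replicates 1 and 2. Means were 0.846 ± 0.0557 CPM for edge libraries and 120.7 ± 109 CPM for central libraries (SD, n = 2 each), with no overlap. The end part had 47.2 and 240 CPM and the middle part 179 and 217 CPM. The log2 fold change between edge and centre was -6.83 with TMM (SE 0.88, edgeR adjusted p = 0.000278) and -7.14 with library totals. Between bases 778516 and 833224 of contig 110 all 4 neighbouring models tested were lower at the edge. Their log2 fold changes were -7.00, -4.59, -6.83 and -9.11 with TMM, and the models flanking them were not called with TMM. With library totals the flanking model at bases 691738 to 756262 was called lower, at -0.96 (edgeR adjusted p = 0.0369). Counts of g1528, g1532 and g4215 included fractions in 10 of 12 libraries and those of g29215 in 3. Counts of whole reads at a single place give no fractions, so these levels are uncertain. The 4 models were called in the same direction in all 18 other settings tried.

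**Figure D4:**
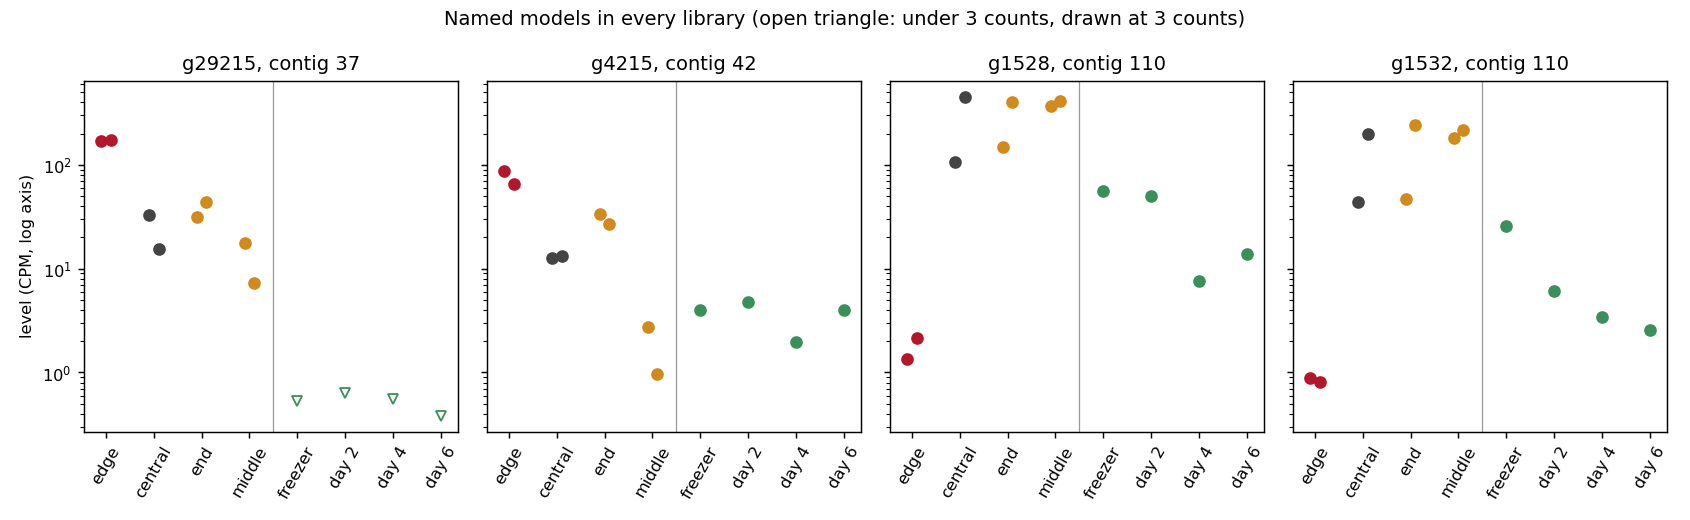
CPM (y axis, log scale) of 4 named models in each of the 12 libraries (points, 1 per library), grouped from the edge zone on the left to the statoblast stages on the right. Open triangles mark libraries with under 3 counts, drawn at the floor of 3 counts. Edge libraries are highest among the mature ones for g29215 and g4215 and lowest for g1528 and g1532, which stand at 43.7 CPM or more in all 6 other mature libraries.

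Some models were not detected at the edge at all. No count was found in both edge libraries for 25 models that had at least 10 counts in each central library. With TMM 24 were called lower, against 10.9% of all models tested, which the choice by these counts nearly fixes. Medians of the 25 were 5.11 and 33.3 CPM in central replicates 1 and 2 and 0 CPM at the edge. A count of 0 there allows up to 0.117 and 0.12 CPM. In the end part the medians were 5.21 and 2.78 CPM and in the middle part 5.91 and 13.2 CPM, and 17 of the 25 had at least 10 counts in each of these 4 libraries. The median was lower in central replicate 1 than in replicate 2. No statoblast library held a count for 15 of the 25, beside 9.46% of all models tested. At the other extreme, 1 of the 25, on contig 68, reached 3591 CPM in the freezer library.

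The models not detected at the edge were few and partly neighbours, lying on 12 contigs with 6 on contig 32, 5 on contig 8 and 3 on contig 152. The 5 on contig 8 lay between bases 8492880 and 8516310. Medians over the 5 were 0 CPM at the edge and, in central replicates 1 and 2, 13.3 and 95.0 CPM, beside 18.9 and 1.89 CPM in the end part and 4.08 and 14.3 CPM in the middle part, and 3 of the 5 had no statoblast count. The median span of the 25 models was 1426 bases, and 6 overlap another model. The reverse was found for 1 model, which had 11 and 44.33 counts at the edge and 0 in both central libraries. It had 214.75 counts in middle part replicate 2 and 0 in the remaining libraries, and it was not called.

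Calls were spread over the assembly. On the 98 contigs with at least 50 models tested, which held 14782 models, the share called higher with TMM ran from 4.41% to 25.0% with a median of 12.4%, and the share called lower from 1.52% to 25.5% with a median of 10.4%. With library totals these ranges were 0% to 14.8% and 8.33% to 34.0%. On the 21 contigs with at least 200 models the shares were closer together, at 6.94% to 21.4% higher and 7.14% to 15.7% lower with TMM. The contigs with most models are 1, 8 and 2, to be read beside 12.8% higher and 10.9% lower over all models with TMM, and 5.02% and 21.5% with library totals. Contig 1 had 114 higher and 84 lower of 783 models with TMM, and 54 and 151 with library totals. Contig 8 had 50 and 83 of 570 with TMM, and 21 and 162 with library totals. Contig 2 had 55 and 62 of 511 with TMM, and 22 and 119 with library totals.

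A few contigs stood at the extremes, and which ones depended on the scaling. With TMM contig 77 had the highest share of rises, with 14 of 56 models (25.0%) higher and 2 lower with TMM, and 5 and 5 with library totals. Contig 19, with more models, had 48 higher and 16 lower of 224 models with TMM, and 18 and 37 with library totals. Contig 33 had 34 and 12 of 163 with TMM, and 12 and 29 with library totals. With library totals the shares higher and lower were 8.93% and 8.93% on contig 77, 8.04% and 16.5% on contig 19 and 7.36% and 17.8% on contig 33, beside 5.02% and 21.5% over all models tested. The highest share of rises with library totals was that of contig 76, with 14.8% of its 54 models. With TMM contig 32 had the highest share of falls, with 35 of 137 models (25.5%) lower and 14 higher with TMM, and 45 and 9 with library totals. Of the 35, 25 were fitted with at least a 4-fold change. Contig 143 had 11 lower and 5 higher of 53 models with TMM, and 18 and 1 with library totals, and contig 30 had 28 lower and 6 higher of 136 with TMM, and 42 and 4 with library totals. With library totals the shares lower were 32.8% on contig 32, 34.0% on contig 143, the highest of the 98, and 30.9% on contig 30, beside 21.5% over all models tested. The 145 models at least 4-fold lower in all pairings lay on 55 contigs, with 19 on contig 32, 15 on contig 8 and 8 on contig 2, and the 17 at least 4-fold higher lay on 12 contigs, with 3 each on contigs 37 and 159.

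**Figure D5:**
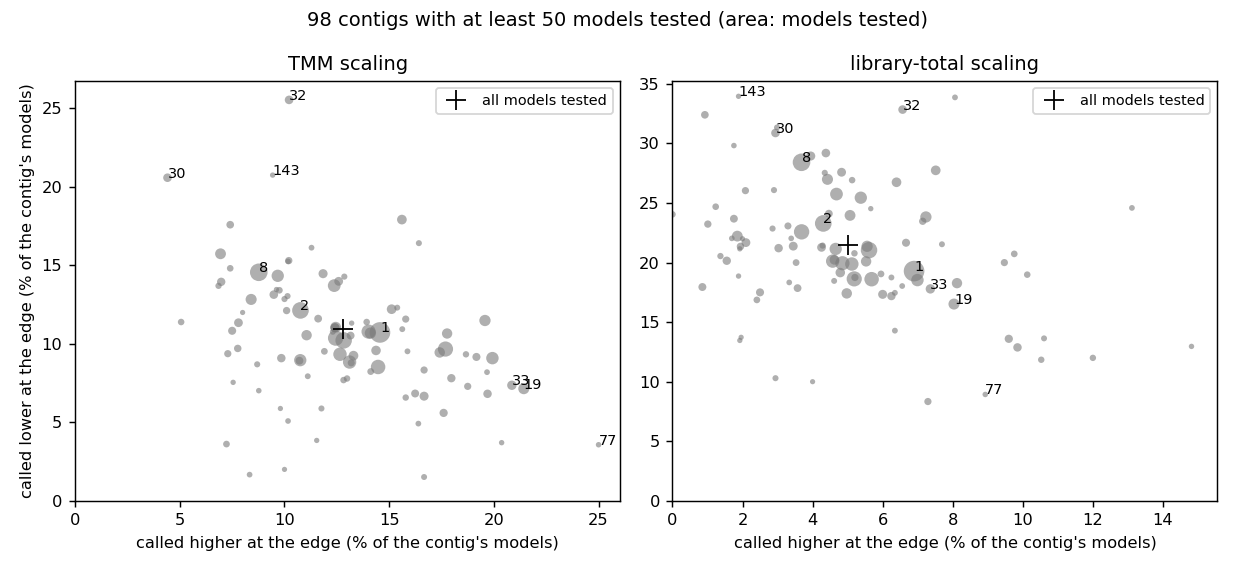
Share of models called lower (y axis, %) against the share called higher (x axis, %) at the edge, 1 point per contig with at least 50 models tested (area by the number of models, cross for all models tested), with TMM scaling (left) and library totals (right). With TMM most contigs stand near the overall shares of 12.8% higher and 10.9% lower, with contig 32 at 25.5% lower and contig 77 at 25.0% higher.

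The mitochondrial genes, which encode subunits of the respiratory chain and of ATP synthase and the mitochondrial ribosomal RNAs, differed little. The 14 models of protein genes include MT_nad3_0 and MT_nad3_1, which share a gene name. None of the 14 passed edgeR's test under either scaling, and 0 with TMM and 2 with library totals had an unadjusted p under 0.05. The DESeq2 Wald test called 0. Their log2 fold changes ran from -0.52 to 0.26 with TMM, with a median of 0.02, and from -0.93 to -0.14 with library totals, with a median of -0.37. The 14 models held 12.2% and 8.85% of the counts in edge replicates 2 and 3, against 14.4% and 14.3% in central replicates 1 and 2. The share was also low in replicate 3 of the end part (8.66%) and of the middle part (8.81%), and the centre has no replicate 3. With the mitochondrial models left out of the TMM fit, 2326 models were higher and 1974 lower, against 2311 and 1978 with them. Of the abundant nuclear models, 85 were higher and 9 lower in that fit. The part of the mitochondrial share in the results with library totals was not tested. The small ribosomal RNA MT_rrnS was lower at the edge, at -0.87 with TMM (edgeR adjusted p = 0.0406) and -1.27 with library totals (edgeR adjusted p = 0.0018). With TMM the call was lost without any 1 of the 4 edge and central libraries, with adjusted p from 0.0563 to 0.205. The large ribosomal RNA MT_rrnL did not pass, at 0.39 with TMM (edgeR adjusted p = 0.357) and 0.02 with library totals (edgeR adjusted p = 0.963).

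The change from centre to edge was also set against the change from middle to end part, the comparison most like it, which shares no library with it. Between end and middle part 62 models (0.343%) were called with TMM, and 2342 had an unadjusted p under 0.05. Of the models called higher at the edge, 68.9% were higher in the end than in the middle part, with a median log2 fold change of 0.22, while over all models tested 51.2% were. Of the models called lower at the edge, 44.3% were higher in the end part, with a median of -0.08. For the same models, library totals gave 72.6% of those called higher and 47.7% of those called lower, beside 54.9% of all models tested. The medians were then 0.26 and -0.03. The 141 abundant nuclear models had a median of 0.22 between end and middle part with TMM and 0.26 with library totals, and 0 of them were called in edgeR, with 11 at an unadjusted p under 0.05, against 2 called in the DESeq2 Wald test. Models without a statoblast count had a median of -0.28 with TMM and -0.24 with library totals. Those at 100 CPM and over in a stage had a median of 0.16 with TMM and 0.21 with library totals.

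The test of the difference itself passed for few models. With TMM the change at the edge was the higher one for 84 models (0.464%) and the lower one for 310 models (1.71%), and with library totals for 51 (0.282%) and 1361 (7.53%). Of the models called higher at the edge, 81 were among the 84 and 6 among the 310. Of the models called lower at the edge, 301 were among the 310. The 310 models had medians of 2.06 and 2.80 CPM in edge replicates 2 and 3 and of 22.0 and 21.3 CPM in central replicates 1 and 2. In the end part the medians were 21.5 and 19.2 CPM and in the middle part 19.3 and 21.2 CPM. Only the edge libraries stood apart by these medians. The same 8 libraries picked the 310 and the 84 models, so their medians are a description. No statoblast count was found for 91 of the 310 models (29.4%) and for 13 of the 84 (15.5%), beside 9.46% of all models tested. The 84 models had medians of 21.4 and 19.1 CPM in edge replicates 2 and 3 and of 7.89 and 6.71 CPM in central replicates 1 and 2, beside 7.49 and 12 CPM in the end part and 13.0 and 14.1 CPM in the middle part. None of the 141 abundant nuclear models passed in edgeR with TMM, where 46 had an unadjusted p under 0.05, while 8 passed with library totals and 16 in the DESeq2 Wald test. These counts rest on single libraries. Without edge replicate 2, 1 model was higher and 35 lower, without central replicate 2, 465 and 766, and without end part replicate 3, 1172 and 1772. Without middle part replicate 2 these were 12 and 148, and without middle part replicate 3, 19 and 99. The first count was 30 without edge replicate 3, 15 without central replicate 1 and 13 without end part replicate 1.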

How the data were processed

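The authors deposited their values as 1 table of expected counts, raw and not normalized, with a contig, a begin and an end for each gene model. Fractions occur among the values. The submitters' processing notes name HISAT2 2.1.0 and featureCounts 1.5.1. Assembly, annotation, strand setting and the handling of shared reads: not given in the sources used here. Per the labels' protocols, a directional kit was used and runs were paired-end or single-end, without saying which library had which. Overlap with another model affects 7781 models, whose counts are uncertain. In edge and central libraries, 30.8% to 32.2% of models with a count held a fraction other than 0.5, against 6.29% to 7.72% in statoblast libraries.

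Rounding to whole numbers moved library totals by at most 0.00408%. The rounded counts of the 8 mature libraries were tested as 4 groups in edgeR 4.0.16 (R 4.3.3, filterByExpr, glmQLFit, glmQLFTest), once with TMM and once with library totals. The biological coefficient of variation was 0.225. An SE is the size of the log2 fold change over the root of its F value. Pairings used log2 of CPM plus 0.5. DESeq2 1.42.0 served for alternatives, and pandas 2.3.3 and matplotlib 3.10.9 for summaries and figures. The tests were first run on simulated data.

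The comparison, classes and rules were chosen with earlier results of these data known. The rule for named models took the 2 largest rises and falls among models called in the same direction under both scalings, zones that do not overlap, log2 CPM averaging 5 or more in the fit, no overlap with another model and whole counts in all 12 libraries. The last condition left 0 models. It was replaced, after values were seen, by at least 10 counts in each of the 8 mature libraries, which left 358 higher and 309 lower models. Other models and regions mentioned were chosen after their values were seen.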

Additional observations from a re-analysis of the deposited data

Results flagged for a closer look

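Results in which the edge-to-centre change differed from the end-to-middle change, by the test of that difference, were marked. For g1528 the difference of the log2 changes was -6.46 with TMM (edgeR adjusted p = 0.00205) and -6.80 with library totals (edgeR adjusted p = 0.000383), with -7.00 between edge and centre and -0.53 between end and middle part. For g1532 the difference was -6.33 with TMM (edgeR adjusted p = 0.00747) and -6.68 with library totals (edgeR adjusted p = 0.00176), with -6.83 between edge and centre and -0.49 between end and middle part. Both edge libraries were low for both models. Over all models tested, the edge-to-centre change was the higher one for 84 and the lower one for 310 with TMM.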

How the results depend on the processing

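The 4 named models kept their call in all 18 other settings, with log2 fold changes of 2.81 to 3.73 (g29215), 2.55 to 3.21 (g4215), -7.73 to -5.41 (g1528) and -7.58 to -5.15 (g1532). The balance of rises and falls turned. With TMM 2311 were higher and 1978 lower, against 1996 and 2270 with upper quartile factors, 2152 and 2384 with edge and central libraries only, 698 and 856 without central replicate 1 and 908 and 3881 with library totals. The median log2 fold change of models at 100 CPM and over in a stage also changed sign, at 0.36 with TMM and -0.05 with library totals. The counts of calls in the rest of this paragraph moved by over 1.5 times, and the cause was not tested. Relative to TMM, library totals gave 48 higher and 573 lower for models without a statoblast count, 298 and 265 for models at 100 CPM and over in a stage, and 51 and 1361 for the difference of changes. Without overlapping models, which leaves fewer models to test, 1519 were higher, and the difference of changes gave 32 and 179. With a 2-fold minimum, 52 abundant nuclear models were higher, and 381 models at 100 CPM and over in a stage were higher and 52 lower. Levels from end and middle libraries gave 14 abundant models lower. Models without a statoblast count that were higher numbered 131 with no filter on low counts and 45 with at least 50 counts in 2 libraries. The difference of changes gave 549 and 955 in the DESeq2 Wald test and 824 and 1393 with no filter.

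Leaving out each mature library in turn gave 456 to 2689 higher and 380 to 2415 lower with TMM, and 161 to 1008 and 679 to 4578 with library totals. Of the abundant nuclear models, 4 to 97 were higher and 2 to 9 lower. Of the models without a statoblast count, 23 to 105 were higher and 114 to 435 lower. Of those at 100 CPM and over in a stage, 116 to 666 were higher and 15 to 114 lower. The difference of changes gave 1 to 1172 and 35 to 1772. With the replicate block, 2347 were higher and 1947 lower, and the difference of changes gave 26 and 316. Same-numbered libraries of different groups correlated at -0.15 to 0.33, with a median of 0.118. Differently numbered ones ran from -0.33 to 0.33, with a median of -0.118. With 2 libraries a group, each value recurs with the opposite sign, so this check cannot show whether the numbers are pairs. The main fits did not take the numbers as pairs. Depth limits the statoblast classes most, since 0 counts allow 0.384 to 0.633 CPM there.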
